A study of Homo sapiens with 12 samples.

Results

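ATF4 and 9 genes of the amino acid and endoplasmic reticulum (ER) stress responses were followed through all 12 libraries of a knockout study of ID2 in TC71, a human Ewing sarcoma cell line. The genes were taken by symbol, as ATF4, ATF3, DDIT3, TRIB3, ASNS, PSAT1, PHGDH, CHAC1, SESN2 and HSPA5, and all 10 were found among the 21569 genes of the count table and passed the filter on low counts. Polyadenylated RNA was sequenced from 4 groups with 3 libraries each. These were a line labelled as the rescue of clone 2, ID2 knockout clone 2, ID2 knockout clone 1, and wild-type TC71. Each knockout group is 1 clone, so an effect of losing ID2 and a difference between clones cannot be told apart within either of them, and the labels give neither the lesion in ID2 nor the construct used for the rescue. All groups were grown in DMEM with fetal bovine serum. The labels name no drug and no withdrawal of an amino acid, so the levels below are those of cells with no stress named.

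ATF4 is a basic leucine zipper transcription factor that is made mainly by translational control. When an amino acid runs short, or when misfolded protein collects in the ER, a kinase phosphorylates the initiation factor eIF2, most translation slows and the ATF4 message is translated more. ATF4 protein then binds, with a partner such as a C/EBP protein, to composite sites in genes for amino acid synthesis, amino acid transport and tRNA charging. RNA counts measure the ATF4 message and the messages of its known targets, and not the ATF4 protein. In Ewing sarcoma, as in many cancers, serine synthesis through PHGDH is a known metabolic dependence.

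The promoters of 3 members are printed because they hold letter matches to known stress response elements. Each line gives the 250 bases before the RefSeq start on the strand of the gene (GRCh38.p14), and capitals mark the match. For ASNS (chr7:97872409-97872658, minus strand) it is TGATGAAAC, which has the form of the C/EBP-ATF response element TGATGNAAN, from 68 to 60 bases upstream. For CHAC1 (chr15:40953221-40953470, plus strand) a match of the same form lies on the opposite strand and so reads GTTGCATCA, from 210 to 202 bases upstream. For HSPA5 (chr9:125241344-125241593, minus strand) the capitals have the form of an ER stress response element, CCAAT and CCACG with 9 bases between them, from 66 to 48 bases upstream.
ASNS: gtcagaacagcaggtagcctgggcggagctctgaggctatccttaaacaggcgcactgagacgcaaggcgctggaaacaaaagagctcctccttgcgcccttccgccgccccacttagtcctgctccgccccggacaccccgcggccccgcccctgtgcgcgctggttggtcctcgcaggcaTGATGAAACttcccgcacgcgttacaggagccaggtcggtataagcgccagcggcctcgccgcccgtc
CHAC1: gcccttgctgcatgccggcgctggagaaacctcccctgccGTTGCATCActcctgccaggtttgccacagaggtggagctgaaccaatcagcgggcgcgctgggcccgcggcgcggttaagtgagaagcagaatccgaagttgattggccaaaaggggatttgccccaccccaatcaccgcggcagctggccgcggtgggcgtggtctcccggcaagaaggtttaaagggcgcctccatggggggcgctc
HSPA5: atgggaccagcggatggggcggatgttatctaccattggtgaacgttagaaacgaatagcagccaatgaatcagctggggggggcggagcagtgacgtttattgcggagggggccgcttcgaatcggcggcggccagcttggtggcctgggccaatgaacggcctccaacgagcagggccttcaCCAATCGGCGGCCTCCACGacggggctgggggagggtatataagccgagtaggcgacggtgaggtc
All 10 members had a promoter in the RefSeq table. Both motifs were searched on both strands. The C/EBP-ATF motif was found in 3 of the 10 members, the other being ATF3 (TGATGGAAG), and in 3.87% of all 27305 gene symbols with a promoter in the table. For ATF3 and for ASNS the match was in 1 of 2 listed promoters. A gene with more promoters has more places for a match. The 10 members had 16 promoters, and the 27305 symbols had 35116. The ER stress motif was found in 1 of the 10 and in 0.0916% of all gene symbols. A match is a run of letters and not a measured binding site.

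Counts per library summed to between 19420408 and 29748084, and 17084 genes were tested. Levels are CPM, counts put on a common library size with TMM scaling, as mean ± SD (n = 3 libraries). Fold changes on the log2 scale come from edgeR's quasi-likelihood test, and a gene counted as called when its p after Benjamini-Hochberg adjustment was under 0.05. Separate cultures are not stated in the labels, so p-values here measure the spread between libraries, which may be technical. ID2 itself had 41.5 ± 0.537 CPM in the libraries labelled rescue, 50.9 ± 3.16 CPM in clone 2, 18.1 ± 0.777 CPM in clone 1 and 77.9 ± 0.657 CPM in wild-type. Counted ID2 RNA was thus lower in the libraries labelled rescue than in the clone they are said to restore (log2 fold change -0.29, edgeR adjusted p = 3.52e-06). With the construct not given, it is unknown whether its RNA would be counted under ID2, so these counts cannot decide on that label. All 12 listed Ewing sarcoma markers were detected in every group, and the 4 of 6 epithelial markers found in the table summed to 76.9 to 86.7 CPM in the libraries labelled rescue, 152.4 to 190.7 CPM in clone 2, 882.9 to 950.5 CPM in clone 1 and 115.0 to 121.5 CPM in wild-type. Fibroblast markers, 7 in all, summed to 41.2 to 49.0, 148.7 to 172.0, 352.2 to 377.5 and 167.5 to 175.6 CPM in the same order of groups. The 3 blood markers found in the table summed to under 1 CPM in every library, and the part of these lists in the results was not tested. In bulk RNA, fewer cells of a type and less RNA per cell cannot be told apart.

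ATF4, the factor at the head of the response (chromosome 22, 39519695-39522685, plus strand, hg38), was lower in both knockout clones. It had 437, 452 and 441 CPM in the libraries labelled rescue, 440.3, 407 and 449 CPM in clone 2, 361, 338 and 357 CPM in clone 1, and 554, 558 and 562 CPM in wild-type. All 9 libraries of the other groups lay below all 3 wild-type libraries, clone 1 lay lowest, and the libraries labelled rescue overlapped those of clone 2. The log2 fold change was -0.67 (SE 0.033) in clone 1 against wild-type and -0.37 in clone 2 against wild-type (edgeR adjusted p = 1.61e-20 and 1.12e-12). Clone 2 stood 0.30 above clone 1 (edgeR adjusted p = 4.35e-10). The libraries labelled rescue differed from clone 2 by 0.04, which was not called (edgeR adjusted p = 0.401). Chromosome 22 genes at 1 CPM or more had median log2 fold changes of -0.069 in clone 1 and 0.062 in clone 2 against wild-type. Between clone 2 and clone 1 the median was 0.098. The part of these shifts in the ATF4 values was not tested.

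**Figure D1:**
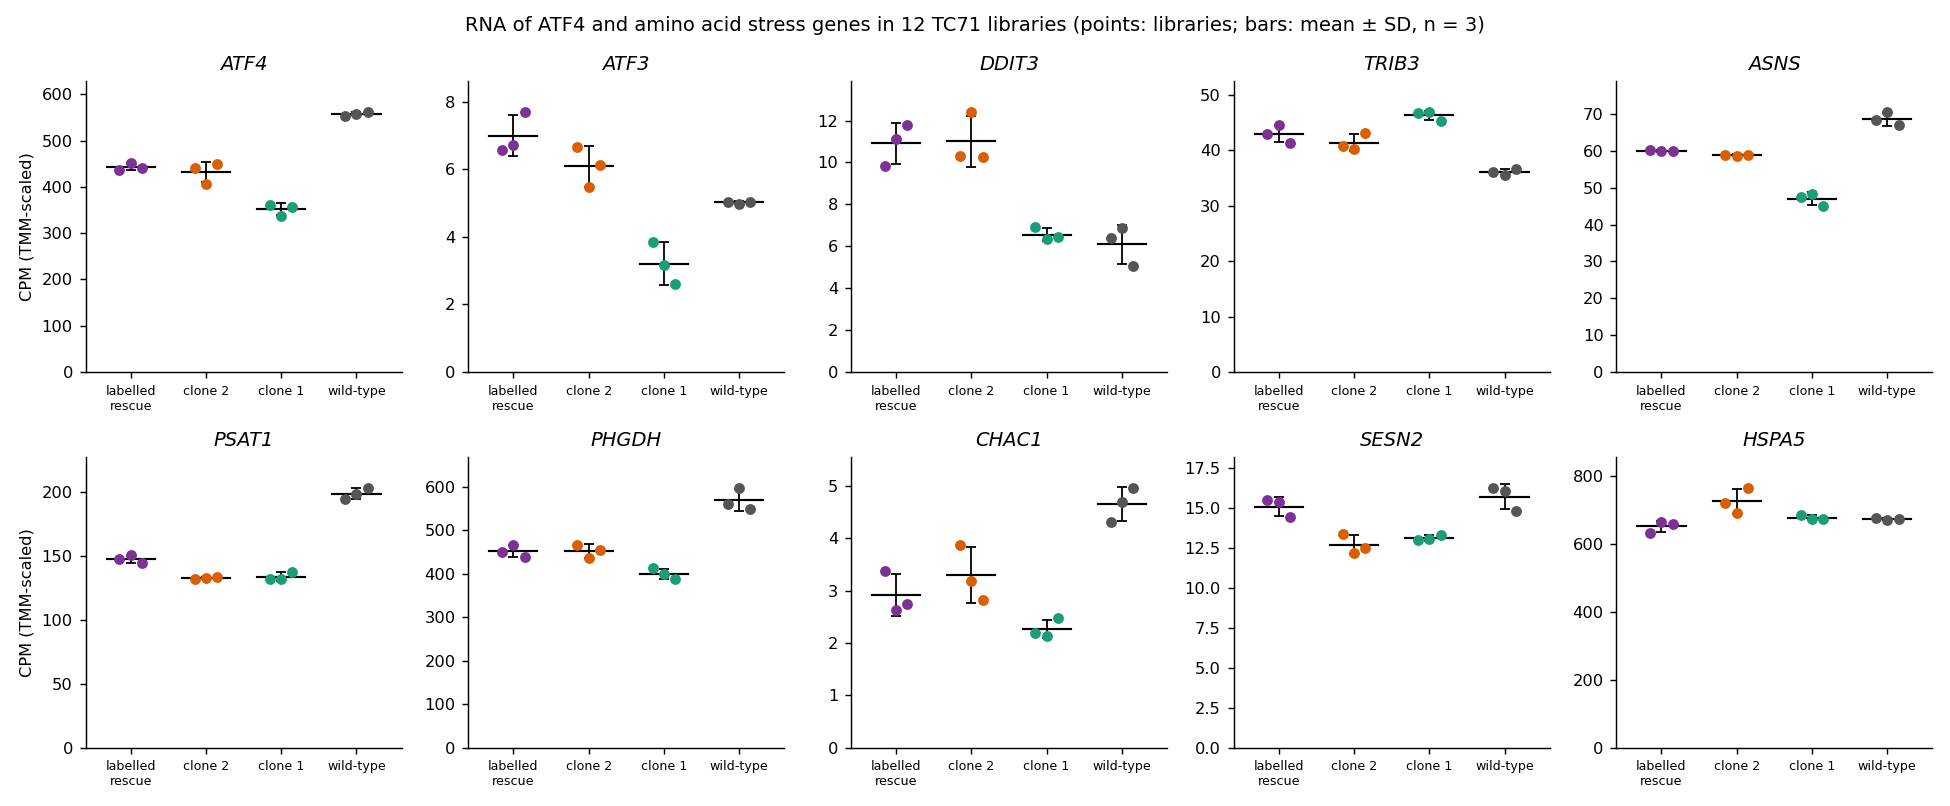
CPM of the 10 members in each library (points) with the group mean (line) and SD (error bar), 1 panel per gene, each axis starting at 0. ATF4, ASNS, PSAT1, PHGDH and CHAC1 are highest in all 3 wild-type libraries, and DDIT3 is highest in the libraries labelled rescue and in clone 2.

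ATF3 is a stress-induced repressor and activator of the same bZIP class (chromosome 1, 212565334-212620777, plus strand). It fell in clone 1 and, less securely, rose in clone 2. It had 6.57, 6.70 and 7.68 CPM in the libraries labelled rescue, 6.67, 5.47 and 6.11 CPM in clone 2, 3.85, 3.16 and 2.59 CPM in clone 1, and 5.03, 4.98 and 5.03 CPM in wild-type. Every clone 1 library was below every wild-type library, and every clone 2 library was above. It fell in clone 1 against wild-type (log2 fold change -0.66, edgeR adjusted p = 4.58e-05) and rose in clone 2 by a smaller amount (0.29, edgeR adjusted p = 0.0324). The clone 2 call was lost with no filter, in DESeq2 (adjusted p = 0.0795) and when any 1 wild-type library was left out. It was also lost without clone 2 replicate 3 and without clone 2 replicate 1 (0.20, edgeR adjusted p = 0.232). The direct difference of 0.95 between clone 2 and clone 1 was called (edgeR adjusted p = 3.78e-08).

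DDIT3, which encodes the pro-apoptotic factor CHOP (chromosome 12, 57516588-57521737, minus strand), rose in clone 2 but not detectably in clone 1. It had 9.84, 11.1 and 11.8 CPM in the libraries labelled rescue, 10.3, 12.4 and 10.3 CPM in clone 2, 6.90, 6.36 and 6.42 CPM in clone 1, and 6.38, 6.87 and 5.07 CPM in wild-type. The libraries labelled rescue and clone 2 lay above all those of clone 1 and wild-type, and the last 2 groups overlapped each other. The log2 fold change was 0.86 (SE 0.10) in clone 2 against wild-type (edgeR adjusted p = 2.63e-09), and 0.12 (SE 0.11) in clone 1 against wild-type, which was not called (edgeR adjusted p = 0.386). DDIT3 overlaps MARS1 and MBD6, both on the other strand, and the strand setting of the counting is not given, so its counts are uncertain. On its own strand it also overlaps AC022506.1, which has no row of counts, and MIR616, with 32 summed counts. MARS1 and MBD6 are far more abundant, with 105161 summed counts for MARS1 and 34795 for MBD6, against 2543 for DDIT3. MARS1, the methionyl-tRNA synthetase, had 375 ± 6.06 CPM in the libraries labelled rescue, 388 ± 4.24 CPM in clone 2, 293 ± 8.24 CPM in clone 1 and 368 ± 12.9 CPM in wild-type. MBD6 had 123 ± 6.44 CPM in the libraries labelled rescue, 131 ± 3.64 CPM in clone 2, 114 ± 1.75 CPM in clone 1 and 105 ± 5.44 CPM in wild-type. The part of these neighbours in the DDIT3 values was not tested.

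**Figure D2:**
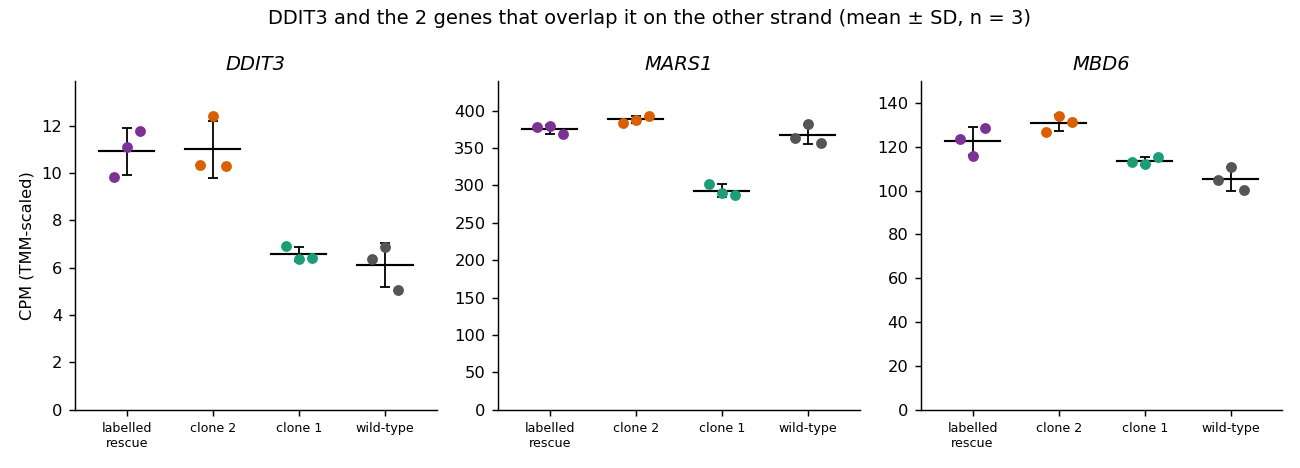
CPM of DDIT3 and of its overlapping neighbours MARS1 and MBD6 in each library, with group means and SD, and each axis starting at 0. DDIT3 is highest in the libraries labelled rescue and in clone 2, where MBD6 is also highest, and MARS1 is lowest in clone 1.

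TRIB3, a pseudokinase that is a target and inhibitor of ATF4 and DDIT3 (chromosome 20, 362835-397559, plus strand), was the member that rose in both clones where ATF4 fell. It had 43.0, 44.5 and 41.4 CPM in the libraries labelled rescue, 40.8, 40.1 and 43.1 CPM in clone 2, 46.6, 46.8 and 45.3 CPM in clone 1, and 36.0, 35.4 and 36.5 CPM in wild-type. All knockout libraries were above all wild-type libraries, and clone 1 was above clone 2. The log2 fold changes against wild-type were 0.36 in clone 1 and 0.20 in clone 2 (edgeR adjusted p = 1.48e-08 and 0.000465). Genes of chromosome 20 at 1 CPM or more had a median log2 fold change of 0.16 in clone 1 and 0.12 in clone 2 against wild-type, and the part of this shift in the TRIB3 values was not tested.

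ASNS, asparagine synthetase, whose promoter match is printed above (chromosome 7, 97852118-97872542, minus strand), was lower in both clones. It had 60.4, 60.0 and 59.8 CPM in the libraries labelled rescue, 59.0, 58.6 and 58.9 CPM in clone 2, 47.5, 48.3 and 45.0 CPM in clone 1, and 68.3, 70.5 and 66.9 CPM in wild-type. The groups did not overlap, with clone 1 lowest, although the small difference between the libraries labelled rescue and clone 2 was not called (log2 fold change 0.03, edgeR adjusted p = 0.613). ASNS had a log2 fold change of -0.54 in clone 1 and -0.22 in clone 2 against wild-type (edgeR adjusted p = 1.21e-14 and 1.32e-05).

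PSAT1 and PHGDH make serine from a glycolytic intermediate, PHGDH as the first step and PSAT1 as the second. PSAT1 (chromosome 9, 78297143-78330093, plus strand) had 147, 150.1 and 145 CPM in the libraries labelled rescue, 132, 133 and 133 CPM in clone 2, 131, 132 and 137 CPM in clone 1, and 194, 198 and 203 CPM in wild-type. Both clones overlapped each other and lay well below wild-type, and the libraries labelled rescue lay between the clones and wild-type. Its log2 fold change was -0.57 in clone 1 and -0.58 in clone 2 against wild-type (edgeR adjusted p = 2.03e-18 and 1.65e-18). In the libraries labelled rescue it was 0.15 (SE 0.034) above clone 2 (edgeR adjusted p = 0.000404).

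PHGDH (chromosome 1, 119648411-119744226, plus strand) had 451, 466 and 438 CPM in the libraries labelled rescue, 467, 436 and 455 CPM in clone 2, 412, 399 and 389 CPM in clone 1, and 561, 598 and 549 CPM in wild-type. All wild-type libraries were above all others, and clone 1 was below clone 2. PHGDH had a log2 fold change of -0.51 in clone 1 and -0.33 in clone 2 against wild-type (edgeR adjusted p = 1.61e-16 and 3.85e-11).

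CHAC1, a glutathione-degrading enzyme that is among the most inducible ATF4 targets (chromosome 15, 40952962-40956519, plus strand), had the largest fold change of any member in clone 1. It had 3.38, 2.63 and 2.75 CPM in the libraries labelled rescue, 3.87, 3.19 and 2.82 CPM in clone 2, 2.20, 2.13 and 2.47 CPM in clone 1, and 4.32, 4.69 and 4.96 CPM in wild-type. Wild-type was above every other library, clone 1 was lowest, and the libraries labelled rescue overlapped clone 2. The log2 fold change was -1.04 (SE 0.15) in clone 1 and -0.48 (SE 0.14) in clone 2 (edgeR adjusted p = 9.90e-08 and 0.00277). Clone 2 was 0.56 (SE 0.16) above clone 1 (edgeR adjusted p = 0.00258), which was no longer called without clone 2 replicate 1 (0.40, edgeR adjusted p = 0.0608). Chromosome 15 genes at 1 CPM or more had median log2 fold changes of -0.037 in clone 1 and -0.12 in clone 2 against wild-type. Between clone 2 and clone 1 the median was -0.10. The part of these shifts in the CHAC1 values was not tested.

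SESN2, a leucine sensor that restrains mTORC1 and is a target of ATF4 and p53 (chromosome 1, 28259527-28282491, plus strand), was lower in both clones and higher again in the libraries labelled rescue. It had 15.5, 15.3 and 14.4 CPM in the libraries labelled rescue, 13.3, 12.2 and 12.5 CPM in clone 2, 13.0, 13.0 and 13.3 CPM in clone 1, and 16.2, 16.1 and 14.8 CPM in wild-type. The clones overlapped each other, and so did the libraries labelled rescue and wild-type, with no overlap between these pairs of groups. The log2 fold change against wild-type was -0.26 in clone 1 and -0.30 in clone 2, and the libraries labelled rescue stood 0.24 (SE 0.071) above clone 2 (edgeR adjusted p = 0.00185, 0.000429 and 0.00563).

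HSPA5, the ER chaperone BiP and a target of ATF6 more than of ATF4 (chromosome 9, 125234853-125241330, minus strand), moved least of the members against wild-type in both clones. It had 633, 664 and 659.8 CPM in the libraries labelled rescue, 722, 691 and 765 CPM in clone 2, 686, 674 and 673 CPM in clone 1, and 677, 672 and 674 CPM in wild-type. Clone 2 was above all other libraries, the libraries labelled rescue were below all of them, and clone 1 overlapped wild-type. The log2 fold change was 0.11 in clone 2 against wild-type (edgeR adjusted p = 0.00392), and without clone 2 replicate 3 it was 0.055 and not called (edgeR adjusted p = 0.154). It was 0.072 and not called with no filter on low counts (edgeR adjusted p = 0.0541), and 0.18 under upper quartile scaling. Clone 2 stood 0.10 above clone 1 (edgeR adjusted p = 0.00676), or 0.16 under upper quartile scaling and 0.059 without clone 2 replicate 3, which was not called (edgeR adjusted p = 0.127). It was 0.01 (SE 0.032) in clone 1, which was not called (edgeR adjusted p = 0.865). Between the libraries labelled rescue and clone 2 it was -0.15 (SE 0.032, edgeR adjusted p = 0.000129), and -0.10 without clone 2 replicate 3.

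In clone 1 against wild-type, 1 of 10 members was called higher and 7 lower, against 30.8% and 30.7% of the genes tested (61.5% in all), and the median log2 fold change was -0.53 over the members and 0.0064 over all genes. In clone 2 against wild-type, 4 were higher and 6 lower, against 31.5% and 30.6% of genes (62.1% in all), with medians of -0.26 over the members and 0.013 over all genes. With more than 60% of all genes called in either comparison, a call alone says little, and in clone 2 the called members went both ways, between -0.58 for PSAT1 and 0.86 for DDIT3. The groups did not overlap for 8 members in clone 1 against wild-type and for all 10 in clone 2 against wild-type, where 65.2% and 64.4% of all genes did not. Both comparisons share the wild-type libraries. The libraries labelled rescue against clone 2 gave 2 higher, 1 lower and 7 not called, against 19.3% and 19.9% of genes (39.2% in all), with a median of 0.03 over the members. Against wild-type those libraries gave 3 higher and 5 lower, against 28.5% and 29.9% (58.4% in all), with a median of -0.12. Clone 2 against clone 1 gave 7 higher and 1 lower, against 30.3% and 31.9% (62.2% in all), with a median of 0.24 over the members and 0.0025 over all genes.

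**Figure D3:**
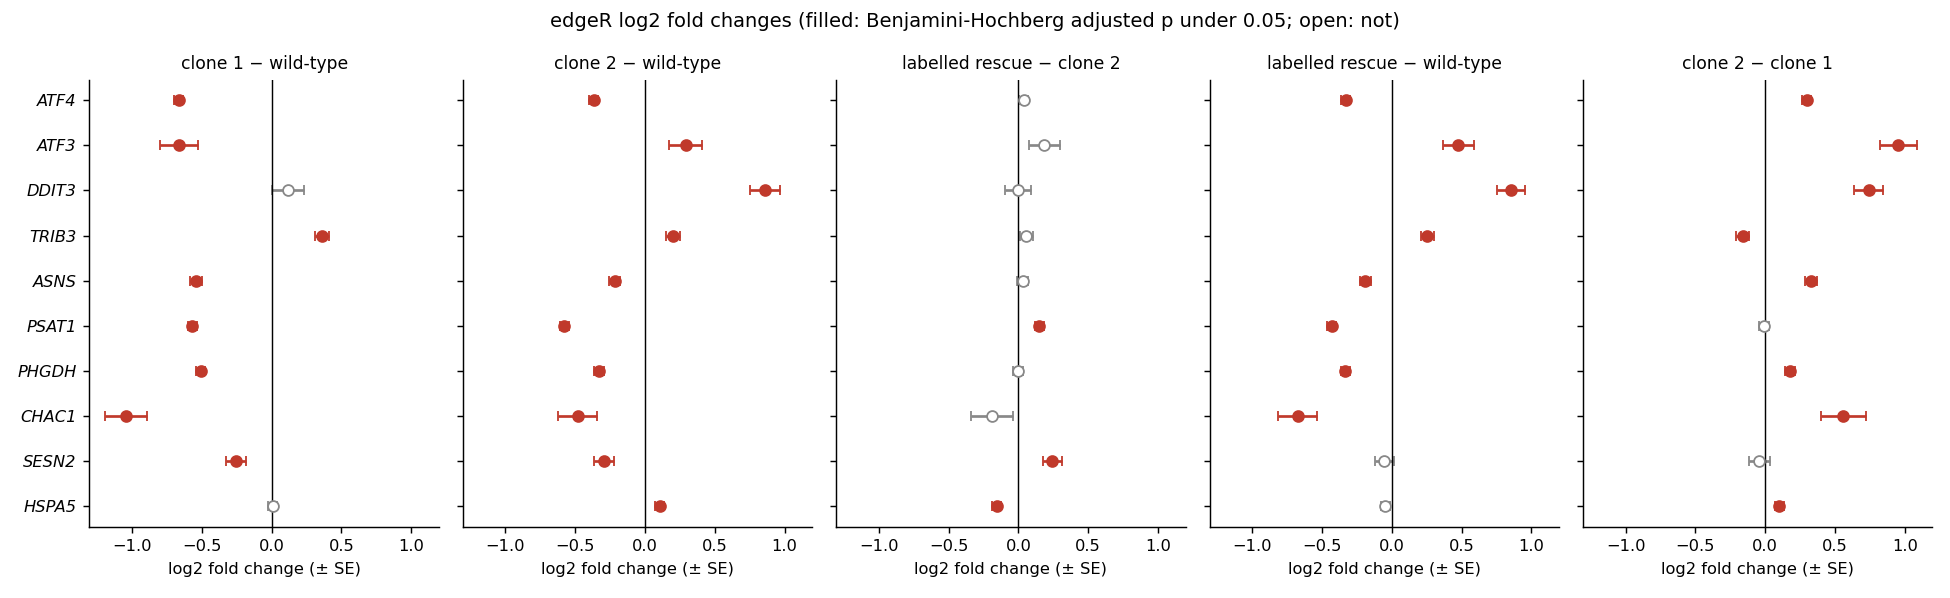
Log2 fold change of each member with its SE in the 5 comparisons, from the edgeR fit, with a line at 0 and filled points for called members. In clone 1 against wild-type 7 of 10 lie below 0 and are called, and in clone 2 DDIT3 at 0.86 lies farthest above 0.

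Divided by the merged exon length, wild-type levels ran from 222.0 CPM per kb for ATF4 and 172.6 CPM per kb for HSPA5, through 90.6 for PSAT1 and 61.8 for PHGDH, to 2.26 for CHAC1 and 1.24 for ATF3. By this measure the order changed at the top. HSPA5 stood above ATF4 in clone 2 at 185.7 against 171.8 CPM per kb and in clone 1 at 173.5 against 140.1 CPM per kb. Before the division HSPA5 was above ATF4 in every group, at 674.5 against 558.1 CPM in wild-type. The merged length joins the exons of all isoforms, 9217 bases for PHGDH and 2188 for PSAT1, so the order between genes depends on it. ATF4, PSAT1 and HSPA5 have processed pseudogenes, and how reads that match both copies were counted is not given, so their levels carry that uncertainty. Within groups the coefficient of variation of a member ran between 0.359% for ASNS in clone 2 and 19.6% for ATF3 in clone 1. Over the 12 libraries the genes outside the members most like ATF4 were GARS1, RAD21 and C18orf25, whose centred log2 CPM differed from that of ATF4 by a root mean square of 0.0464, 0.0476 and 0.0525. The nearest members were PHGDH at 0.0768 and ASNS at 0.0800. Outside genes were picked from all tested genes at a mean of 1 CPM or more, and members from only 9. A closer gene from the larger pool therefore says little about the members. For ASNS the nearest were HNRNPH1 at 0.0283, ERG28 at 0.0385 and EIF4EBP2 at 0.0390.

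Upstream of ATF4, 10 genes were listed, for eIF2, its kinases and phosphatases, with GCN1, IMPACT and DELE1. Of these, 2 rose and 6 fell in clone 1, and 2 rose and 6 fell in clone 2 (3 fell under upper quartile scaling). Upper quartile scaling also shifted all genes in clone 2, to 6413 higher and 4257 lower of 17084. With TMM scaling, 30.8% of all genes tested rose and 30.7% fell in clone 1, and 31.5% rose and 30.6% fell in clone 2. PPP1R15A (GADD34), the inducible phosphatase subunit that ends the response, had 19.3 CPM in the libraries labelled rescue, 14.8 CPM in clone 2, 11.4 CPM in clone 1 and 10.6 CPM in wild-type. It rose in clone 2 against wild-type by 0.47 on the log2 scale and again in the libraries labelled rescue against clone 2 by 0.38 (edgeR adjusted p = 2.20e-06 and 3.00e-05). EIF2AK4 (GCN2), the kinase that senses uncharged tRNA, was lower in clone 1 and clone 2 (138 and 129 CPM, against 159 CPM in wild-type), with log2 fold changes of -0.20 and -0.30 (edgeR adjusted p = 1.08e-06 and 1.73e-10). The 2 listed genes that rose in clone 1 were DELE1 (96.7 CPM, against 65.2 in wild-type) and the kinase EIF2AK2 (107 CPM, against 87.0).

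Among bZIP partners, MAFG, a small Maf protein, had 104 CPM in the libraries labelled rescue, 116 CPM in clone 2, 55.4 CPM in clone 1 and 79.0 CPM in wild-type, so it fell in clone 1 and rose in clone 2 (log2 fold change -0.51 and 0.56, edgeR adjusted p = 5.12e-15 and 6.39e-17). CEBPB, a known partner of ATF4, rose in both clones, by 0.19 and 0.46, and fell by 0.58 in the libraries labelled rescue against clone 2 (edgeR adjusted p = 0.0046, 4.88e-09 and 4.84e-11). Of 8 genes tested in this list, 1 rose and 5 fell in clone 1 (3 fell without wild-type replicate 2), and 4 rose and 4 fell in clone 2. The shares over all genes tested were 30.8% higher and 30.7% lower in clone 1, and 31.5% and 30.6% in clone 2.

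Genes of serine, glycine and folate metabolism lie next to PHGDH and PSAT1 in the pathway. Of 11, 1 rose and 8 fell in clone 1 (median log2 fold change -0.37, and 2 rose without wild-type replicate 2), and 1 rose and 6 fell in clone 2 (median -0.27). Over all genes tested, 30.7% fell in clone 1 and 30.6% in clone 2. ALDH1L2, a mitochondrial folate enzyme, had 23.8, 23.7 and 23.9 CPM in the libraries labelled rescue, 17.0, 20.8 and 16.3 CPM in clone 2, 20.6, 20.2 and 17.3 CPM in clone 1, and 76.1, 75.3 and 75.6 CPM in wild-type. Wild-type was several times above every other library, and the log2 fold changes were -1.97 in clone 1 and -2.08 in clone 2 (edgeR adjusted p = 3.53e-28 and 3.60e-28). GLDC, the glycine decarboxylase, fell to 14.9 CPM in clone 1 and 37.9 CPM in clone 2, against 61.9 CPM in wild-type. SFXN1, a mitochondrial serine transporter, had 60.8 CPM in clone 1 and 87.5 CPM in clone 2, against 114 CPM in wild-type (log2 fold change -0.90 and -0.38, edgeR adjusted p = 6.68e-23 and 1.19e-11).

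Of 21 tRNA synthetase and export genes, 3 rose and 16 fell in clone 1 (median log2 fold change -0.32). In clone 2, 4 rose and 13 fell (median -0.17, or 6 and 11 under upper quartile scaling). Upper quartile scaling also shifted all genes in clone 2, to 6413 higher and 4257 lower of 17084. With TMM scaling, 30.8% of all genes tested rose and 30.7% fell in clone 1, and 31.5% rose and 30.6% fell in clone 2. GARS1, the glycyl-tRNA synthetase nearest to ATF4 above, had 208 CPM in clone 1 and 259 CPM in clone 2, against 314 CPM in wild-type. SARS1, the seryl-tRNA synthetase, had 439 CPM in the libraries labelled rescue, 462 CPM in clone 2, 237 CPM in clone 1 and 311 CPM in wild-type, so it fell in clone 1 by 0.39 and rose in clone 2 by 0.57 on the log2 scale (edgeR adjusted p = 1.72e-13 and 9.13e-19). HARS1, the histidyl-tRNA synthetase, rose in both clones (0.43 and 0.29, edgeR adjusted p = 3.54e-14 and 2.37e-09).

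The other amino acid enzymes split by clone. Of 13, 8 rose and 4 fell in clone 1, and 2 rose and 8 fell in clone 2. The shares over all genes tested were 30.8% higher and 30.7% lower in clone 1, and 31.5% and 30.6% in clone 2. ASS1, which makes argininosuccinate, had 145 CPM in the libraries labelled rescue, 111 CPM in clone 2, 283 CPM in clone 1 and 132 CPM in wild-type. GLUL, glutamine synthetase, had 177 CPM in the libraries labelled rescue, 165 CPM in clone 2, 67.9 CPM in clone 1 and 187 CPM in wild-type. ASS1 rose by 1.10 and GLUL fell by 1.46 on the log2 scale in clone 1 against wild-type (edgeR adjusted p = 3.98e-26 and 8.51e-31).

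**Figure D4:**
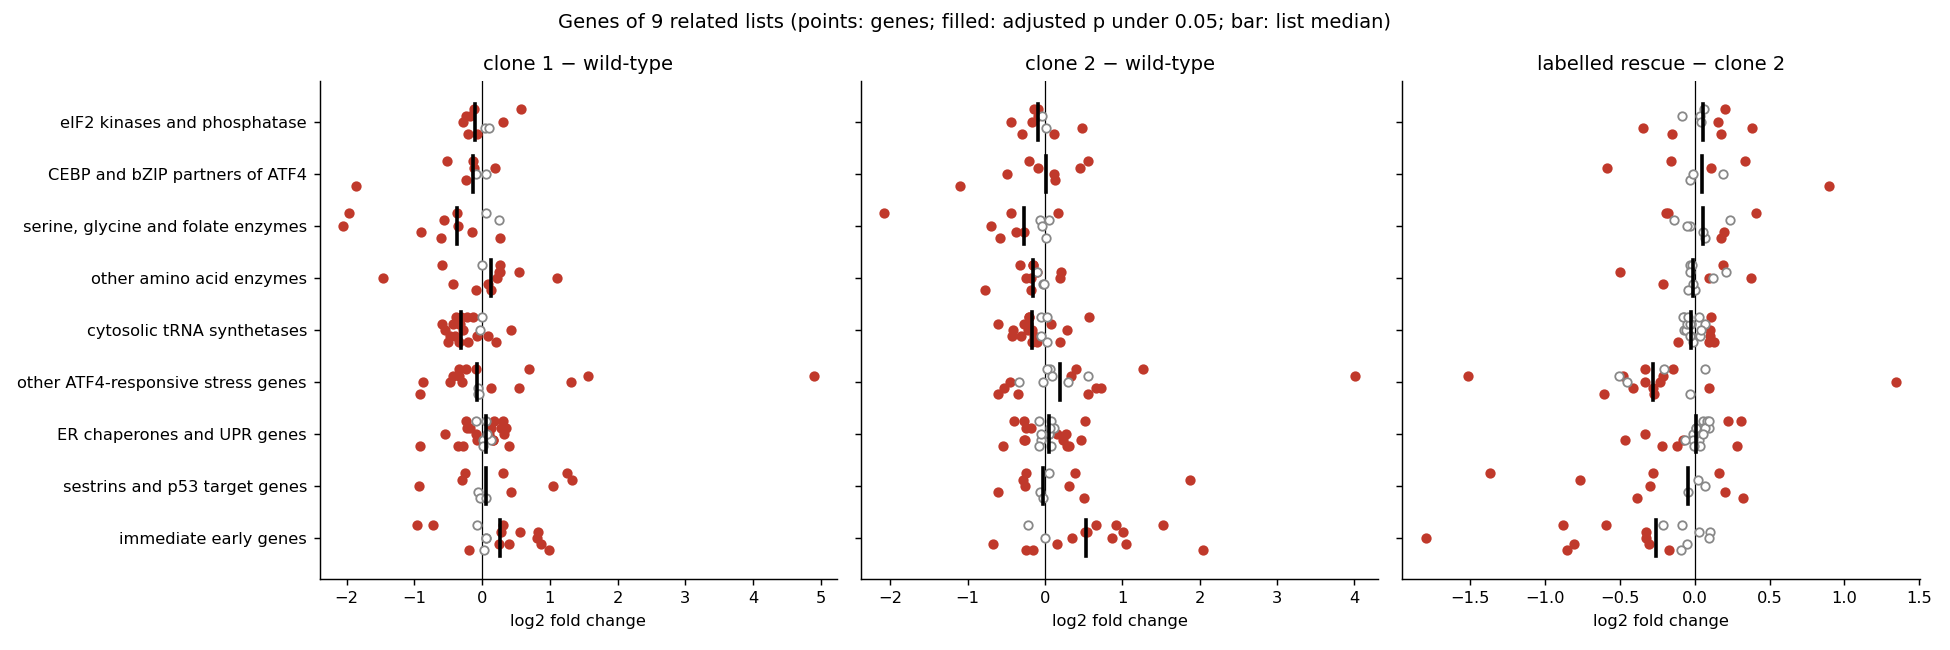
Log2 fold change of every tested gene of 9 pathway lists (points) with the list median (bar) for clone 1 and clone 2 against wild-type and the libraries labelled rescue against clone 2, 1 row per list, with axes of different span. The serine, glycine and folate list has medians of -0.37 in clone 1 and -0.27 in clone 2, and the tRNA synthetase list -0.32 and -0.17.

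Other genes known to respond to ATF4 were called in both directions. Of 18 tested, 6 rose and 9 fell in clone 1, and 7 rose and 4 fell in clone 2 (11 rose under upper quartile scaling). Against clone 2, 2 rose and 11 fell in the libraries labelled rescue. Only 1 rose there under upper quartile scaling, in DESeq2, with only the groups compared, and without clone 2 replicate 1, clone 2 replicate 3 or rescue replicate 3. Upper quartile scaling also shifted all genes in clone 2 against wild-type, to 6413 higher and 4257 lower of 17084. In the libraries labelled rescue against clone 2 it gave 2776 higher and 3871 lower. With TMM scaling, shares of all genes tested were 30.8% higher and 30.7% lower in clone 1, and 31.5% and 30.6% in clone 2. They were 19.3% and 19.9% in the libraries labelled rescue against clone 2. In clone 2 against wild-type, 61.1% of the list and 62.1% of all genes were called. SLC38A2, a neutral amino acid transporter, had 649.6 CPM in the libraries labelled rescue, 752 CPM in clone 2, 442 CPM in clone 1 and 596 CPM in wild-type. SLC1A4, another, was high in clone 2 (862 CPM), against 567 CPM in the libraries labelled rescue, 566 CPM in clone 1 and 585 CPM in wild-type. STC2, a secreted stress protein, fell in both clones (11.5 CPM in clone 1 and 14.2 CPM in clone 2, against 21.7 CPM in wild-type), and GADD45A rose in both (10.7 and 16.1 CPM, against 6.63 CPM in wild-type).

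Of 25 ER chaperone and unfolded protein response genes, 10 rose and 9 fell in clone 1. In clone 2, 8 rose and 7 fell (14 and 7 under upper quartile scaling, and 11 fell with no filter on low counts). Upper quartile scaling also shifted all genes in clone 2, to 6413 higher and 4257 lower of 17084. With no filter, 5761 of 21569 genes fell in clone 2. With the filter and TMM scaling, 30.8% of all genes rose and 30.7% fell in clone 1, and 31.5% rose and 30.6% fell in clone 2. The share called in clone 2 was 60% for this list and 62.1% for all genes. DNAJC3, an ER co-chaperone that inhibits eIF2 kinases, had 102 CPM in the libraries labelled rescue, 119 CPM in clone 2, 51.1 CPM in clone 1 and 95.9 CPM in wild-type. CANX, calnexin, had 578 CPM in clone 1 and 879 CPM in clone 2, against 846 CPM in wild-type, and the fall in clone 1 was called (log2 fold change -0.55, edgeR adjusted p = 2.61e-20). Of 11 sestrin and p53 target genes, 5 rose and 3 fell in clone 1, and 4 rose and 4 fell in clone 2, to be read beside the same shares over all genes. CDKN1A, the p21 cell cycle inhibitor, had 47.9 CPM in the libraries labelled rescue, 81.2 CPM in clone 2, 55.9 CPM in clone 1 and 22.3 CPM in wild-type.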

How the data were processed

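Polyadenylated RNA from TC71 cells was sequenced from stranded mRNA libraries, per the labels' protocols, and grouped by title. The authors deposited raw read counts per gene for 12 libraries. The submitters' processing notes list FastQC, STAR and hg38, with no versions. Not given in the sources used here are the counter, its strand setting, the annotation and the gene filter. Coordinates are from GENCODE release 29, and symbols from a table that matched 20717 of 21569 identifiers.

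Counts were tested with edgeR 4.0.16 (R 4.3.3, limma 3.58.1) (quasi-likelihood, TMM scaling, minimum count 10 per group). A single fit held all 12 libraries and left 8 residual degrees of freedom, after the procedure was tested on simulated data. Alternatives were upper quartile scaling, DESeq2 size factors, no filter, a 1 CPM filter, DESeq2 1.42.0, only the groups compared, a replicate block, and leaving out each library. Named genes were ID2, the members, the 2 called higher and 2 called lower with the largest change in each list and comparison at a mean of 1 CPM or more, and the 3 nearest to ATF4 and to ASNS. MBD6 was named for its overlap with DDIT3. The members and lists were chosen with earlier results of these data known. Replicate libraries differed by more than sampling noise (chi-square per degree of freedom 1.58 to 3.40).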

Additional observations from a re-analysis of the deposited data

Results flagged for a closer look

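The effects in the 2 clones, each against the same wild-type libraries, differed by the direct edgeR test of clone 2 against clone 1 for 8 of the 10 members. The log2 difference, clone 2 minus clone 1, was 0.30 for ATF4, 0.95 for ATF3, 0.74 for DDIT3 and -0.16 for TRIB3. It was 0.33 for ASNS, 0.18 for PHGDH, 0.56 for CHAC1 and 0.10 for HSPA5. The CHAC1 call was lost without clone 2 replicate 1 (0.40), the HSPA5 call without clone 2 replicate 3 (0.059), and the TRIB3 call under upper quartile scaling (-0.10). For ID2 itself it was 1.49. ATF3 is the member whose libraries moved in opposite directions against wild-type. Its rise in clone 2 lost its call with no filter, in DESeq2 and when any 1 wild-type library was left out. The call was also lost without clone 2 replicate 3 and without clone 2 replicate 1 (0.20, edgeR adjusted p = 0.232).

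The test was also read for the genes that the naming rule picked in both clones against wild-type, so that other listed genes with larger differences between the clones are not among them. It gave 2.48 for FOSL1, 1.35 for GLDC, 1.07 for MAFG, 1.05 for FOSB and 0.76 for JDP2. It gave 0.58 for GADD45A, 0.54 for CDKN1A, 0.31 for STC2, 0.27 for CEBPB and 0.27 for CTH. It gave -0.14 for HARS1, -0.16 for IMPACT and -0.88 for GDF15, a gene chosen after its values were seen. Most genes differ between the clones, since 62.2% of all genes tested were called in this comparison.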

How the results depend on the processing

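Of 650 member results under the alternatives, 622 kept their direction and their side of the threshold, 12 lost their call and 16 changed sign, all 16 among values that were not called. Without a filter on low counts HSPA5 in clone 1 against wild-type was -0.012, and in the libraries labelled rescue against clone 2 DDIT3 was 0.024 and PHGDH 0.026. In clone 2 against clone 1, upper quartile scaling gave 0.052 for PSAT1 and 0.020 for SESN2, and a 1 CPM filter gave 0.0032 for PSAT1. Leaving out 1 library gave -0.029 to 0.21 for DDIT3 and -0.0084 to 0.017 for HSPA5 in clone 1 against wild-type. It gave -0.048 to 0.093 for DDIT3 and -0.016 to 0.033 for PHGDH in the libraries labelled rescue against clone 2, and -0.028 to 0.0036 for PSAT1 and -0.091 to -0.017 for SESN2 in clone 2 against clone 1. Members called higher in clone 2 against wild-type were 2 without a filter and 2 to 4 with 1 library left out (2 without clone 2 replicate 3). The 1 member lower in clone 2 than clone 1, TRIB3, was not called under upper quartile scaling (-0.10, edgeR adjusted p = 0.065), which left 0 (1 at an unadjusted p under 0.05). The causes were not tested. A replicate block changed 0 of 229 single-gene results and no count of members. No day or batch is named in the labels, but in clone 2 against clone 1 every one of 6 libraries correlated best with the library of its own number. The correlations between equal numbers there were 0.042, 0.090 and 0.083. Against wild-type this held for 3 of 6 libraries with clone 1, 4 with clone 2 and 2 with the libraries labelled rescue. It held for 3 of 6 between the libraries labelled rescue and clone 2. At this depth ATF3, CHAC1 and DDIT3 have the fewest reads and the widest errors.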

Other observations

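Immediate early genes answer growth factors and stress within minutes. Of 16, 9 rose and 3 fell in clone 1, where 30.8% and 30.7% of all genes tested did, and 11 rose and 3 fell in clone 2, where 31.5% and 30.6% did, and 9 fell in the libraries labelled rescue against clone 2, where 19.9% of all genes did. EGR1 had 27.6 CPM in the libraries labelled rescue, 50.7 CPM in clone 2, 16.3 CPM in clone 1 and 27.0 CPM in wild-type. EGR2 had 138 CPM in the libraries labelled rescue, 173 CPM in clone 2, 209 CPM in clone 1 and 118 CPM in wild-type. GDF15, a stress cytokine chosen after its values were seen, had 0.408 CPM in the libraries labelled rescue, 1.19 CPM in clone 2, 2.15 CPM in clone 1 and 0.0692 CPM in wild-type.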
